A study of Artemisia annua with 12 samples.

Results

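In leaves of Artemisia annua, the herb grown for the antimalarial artemisinin, 116 of 63226 genes in the deposited table had a transient dip: their transcripts were low after 2 h of UV-B and back near the starting level after 4 and 6 h. Members were chosen by the harvest means of log2(value + 1). The 2 h mean had to be at least 2.38-fold lower than the 0 h mean on this scale (as a fold of value + 1), the 4 h and 6 h means had to lie within 0.5 log2 units of it, and the mean value had to exceed 0.1 at every harvest. The dip and the return are therefore what the choice asked for, and their sizes below are descriptions without a test. Wild-type seedlings of the cultivar Huhao 1, 6 weeks old and bred for high artemisinin content, had narrowband UV-B lamps (1.5 µmol m-2 s-1) added to their normal light. The youngest fully expanded leaves were taken at 0 h (UV0), 2 h (UV2), 4 h (UV4) and 6 h (UV6), with 3 libraries per harvest and leaves of 3 seedlings mixed in each library. UV0 is the only harvest without exposure, so hours of UV-B and time of day cannot be told apart.

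Plants sense UV-B mainly through the photoreceptor UVR8, which acts with COP1 and HY5 to start the synthesis of flavonoid sunscreens and the repair of DNA. Stronger UV-B also damages transcripts and DNA and sets off wound-like stress signalling. A transcript that drops and comes back within hours has to be made again after its loss, so such courses are read as the balance of synthesis and decay. Artemisinin itself is made in glandular trichomes, small secretory hairs on the leaf surface. The table pairs its identifiers with no gene names, so what the dip genes encode is not known here, and neither marker genes of leaf cell types nor pathway lists could be checked. In whole leaves, fewer cells of a type and less RNA per cell cannot be told apart.

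The values are a normalised expression signal whose unit the table does not name. Column totals lay between 851404 and 868133, and libraries of 1 harvest correlated at r = 0.975 to 0.981 across 25841 well detected genes, which are not independent replicates. Read depth is unknown, so no counting error can be given. Across those 25841 genes the median log2 change against 0 h came to 0.13 (2 h), 0.21 (4 h) and 0.20 (6 h), and the changes of the dip genes stand against that shift. All 116 dip genes were among these 25841.

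The median dip gene kept 26.6% of its 0 h mean at 2 h, with a range of 3.77% to 41.5%. Its difference at 2 h was -1.53 on the log2(value + 1) scale, with quartiles of -1.76 and -1.35. At 2 h, 52 of the 116 were at or under 25% of their 0 h mean and 12 at or under 10%. By 4 h the median dip gene stood at 97.5% of its 0 h mean (range 58.8% to 150%), and by 6 h at 92.1% (range 66.4% to 149%). On the log2 scale the means climbed by 0.95 to 2.81 between 2 and 4 h, with a median of 1.49. Among the 25841 genes ranked by value, the median dip gene lay at percentile 69.4 before exposure and at 33, 64.7 and 63.5 after 2, 4 and 6 h.

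**Figure D1:**
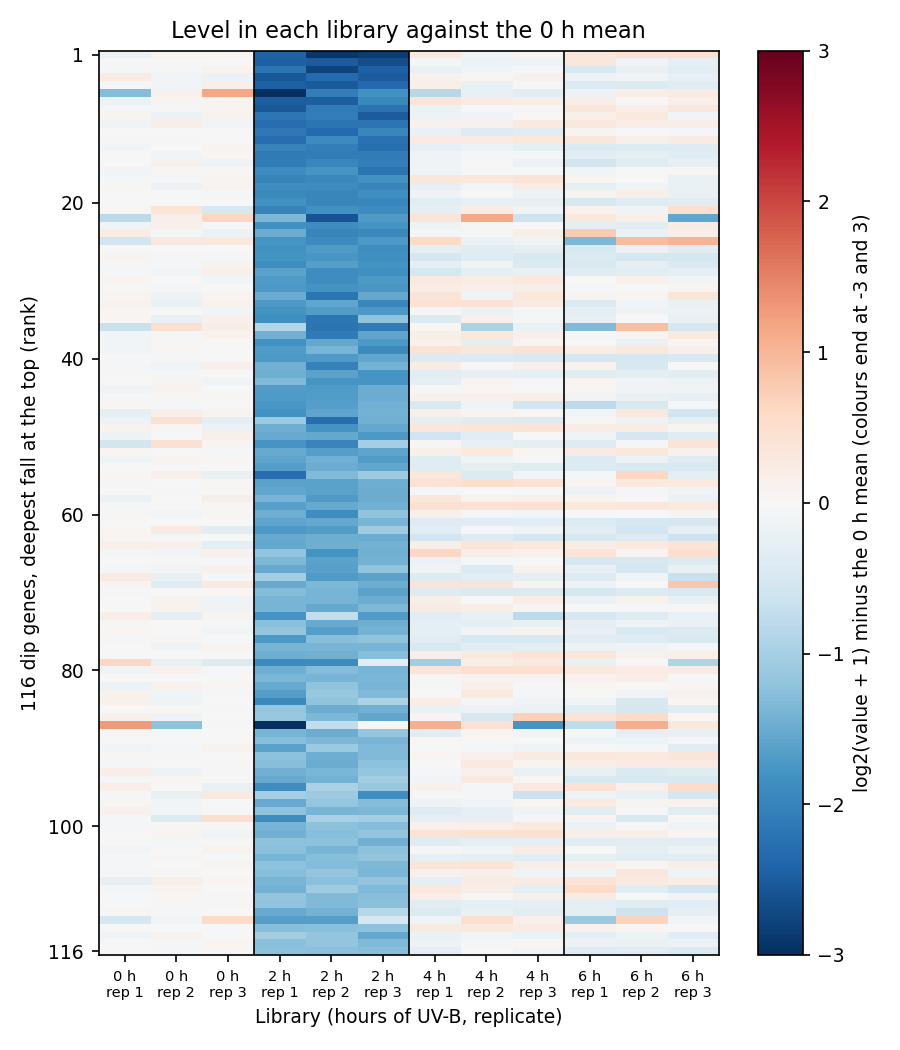
Each row is 1 of the 116 dip genes, ordered by its difference at 2 h, and each column is 1 library; colour gives log2(value + 1) minus the gene's 0 h mean. The 3 columns at 2 h are blue in nearly all rows, and the 6 columns at 4 and 6 h are pale, as the choice of genes requires.

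The 2 genes with the lowest 2 h difference on the log2(value + 1) scale were of middling abundance and kept 10.2% and 9.81% of their 0 h mean at 2 h. Some genes of lower level kept less, and the order of these differences depends on the pseudocount. CTI12_AA309760 had values of 14.54, 18.34 and 18.09 at 0 h, 2.34, 1.38 and 1.47 at 2 h, 20.55, 15.28 and 18.34 at 4 h and 21.61, 23.68 and 24.39 at 6 h. Its 3 libraries at 2 h lay far below the other 9, its 4 h values overlapped those at 0 h, and its 6 h values were all above both. The mean at 2 h was 1.73 ± 0.53, against 17.0 ± 2.13 at 0 h (SD, n = 3 each), a 9.82-fold lower level. CTI12_AA290930 had values of 11.11, 11.19 and 11.02 at 0 h, 1.21, 1.13 and 0.93 at 2 h, 10.61, 9.71 and 9.91 at 4 h and 14.4, 10.24 and 9.1 at 6 h. Its 0 h libraries agreed within 0.77% (coefficient of variation), its 2 h mean was 10.2-fold lower than its 0 h mean, and 1 library made the 6 h values wide.

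The 2 genes with the largest gain in value between 2 and 4 h were also the most abundant dip genes. CTI12_AA098640 had values of 4097.25, 4358.11 and 4285.03 at 0 h, 1295.59, 1757.18 and 1841.68 at 2 h, 3403.25, 3044.33 and 3073.88 at 4 h and 3430.09, 3270.37 and 3068.28 at 6 h. Its mean was 1631 ± 294 at 2 h, against 4247 ± 135 at 0 h (SD, n = 3 each), and it regained 1542 by 4 h. All 6 later libraries still lay below all 3 at 0 h, with means of 74.7% of the 0 h level at 4 h and 76.7% at 6 h. CTI12_AA288720 had values of 1119, 1167.55 and 1146.03 at 0 h, 431.09, 471.93 and 499.66 at 2 h, 958.89, 928.44 and 915.62 at 4 h and 948.46, 907.55 and 903.66 at 6 h. It too stopped short of its starting level, at 81.7% and 80.4% of the 0 h mean at 4 and 6 h, without overlap with the libraries at 0 h.

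**Figure D2:**
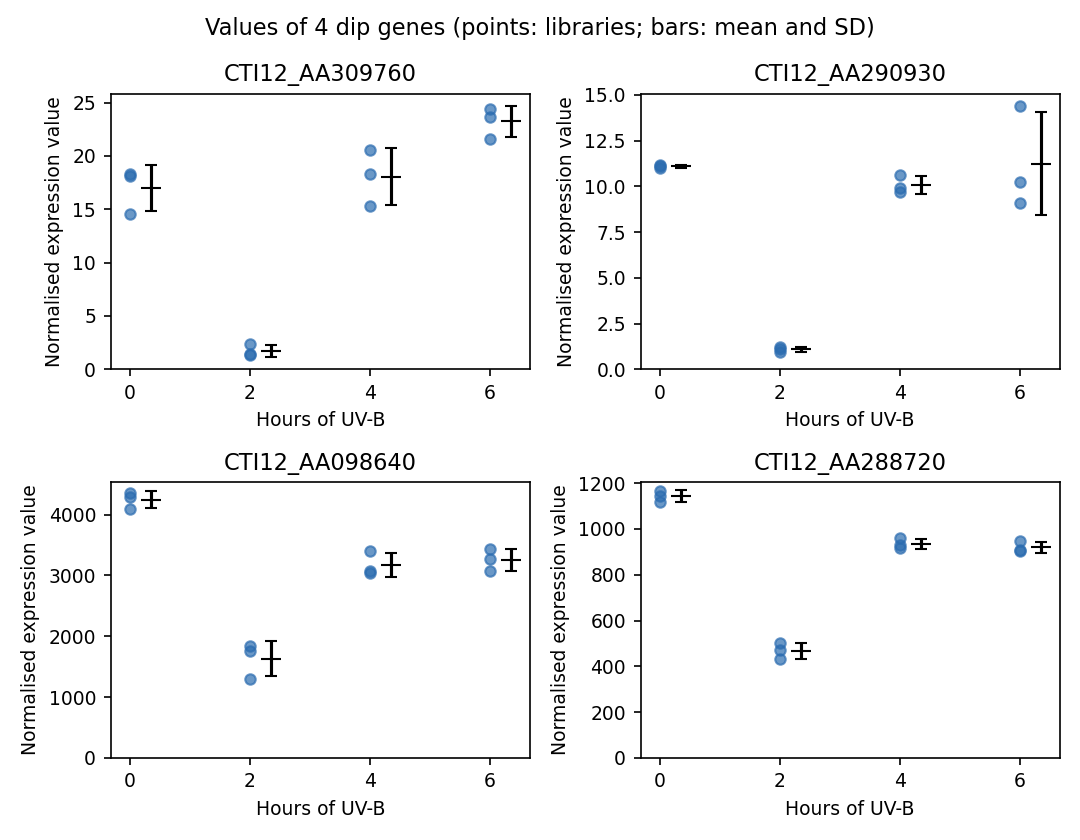
Points are the 3 libraries of each harvest on a linear axis of normalised expression value, over hours of UV-B, for 4 dip genes; bars beside them are the mean and SD. All 4 have their lowest values at 2 h; CTI12_AA098640 and CTI12_AA288720 stay below their 0 h libraries at 4 and 6 h, while CTI12_AA309760 lies above them at 6 h.

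The share of expression left at 2 h went with the level at 0 h. Only 11 dip genes had a 0 h mean of 100 or more, 23 lay between 20 and 100, 55 between 5 and 20 and 27 below 5. The median share left at 2 h was 16.6% in the lowest class, 26.8% and 33.2% in the middle classes and 34.5% in the highest. Across the 116 genes the share left correlated with the 0 h mean at Spearman's rho = 0.66, whereas the log2(value + 1) difference did not track it (rho = -0.03). Both come from the same libraries, and the added 1 makes a low gene lose more of its value to pass the same limit. The rule thus sets a lower ceiling on the share left in weak genes, and no effect of level is read from the first relation. As a share of all well detected genes of the same 0 h level, dip genes made up 1.11% in the highest class, 0.607% and 0.652% in the middle classes and 0.214% in the lowest. In the lowest class the rule is hardest to meet, and the weakest genes cannot meet it at all (lowest 0 h mean of a member, 2.08). These shares are therefore not read as an effect of level.

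**Figure D3:**
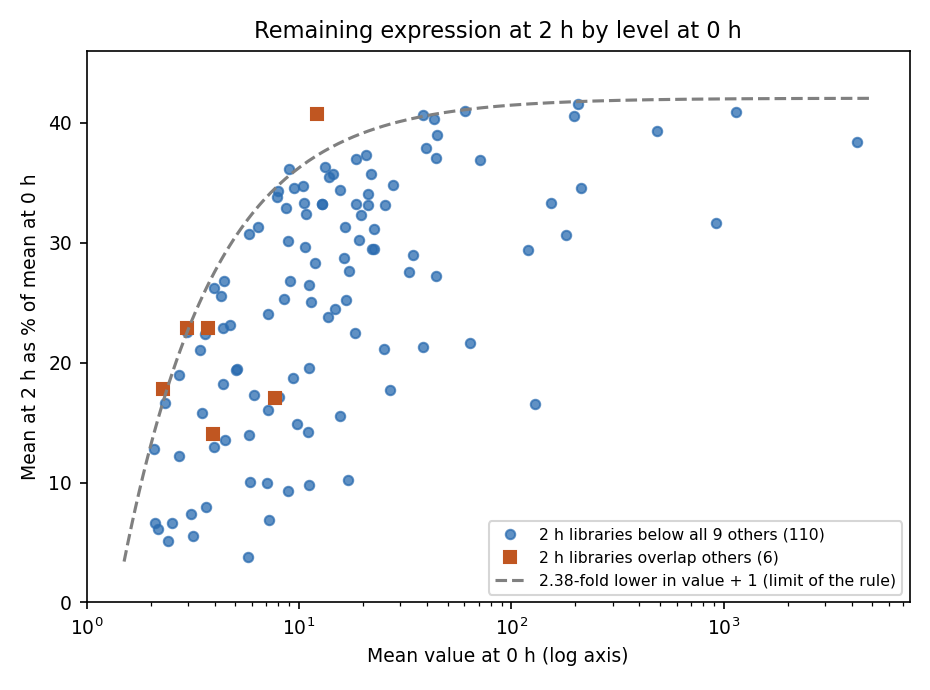
The horizontal axis is the mean value at 0 h on a log axis and the vertical axis the 2 h mean as a percentage of it, 1 point per dip gene; the dashed line is the 2.38-fold limit of the rule. Genes under a 0 h mean of 5 lie at 26.8% or less, and 6 genes marked by squares have a 2 h library that overlaps another harvest; a point above the line passed on the mean of its log values.

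In the values as deposited, the other abundant dip genes differed in how far they came back. Where each stands against 0 h depends on the scaling of the libraries, and after median-ratio scaling the fourth would lie below 0 h at 4 h too. The third by 0 h level had 923.78, 899.14 and 921.34 at 0 h, 276.16, 280.33 and 312.2 at 2 h, 691.53, 688.65 and 664.89 at 4 h and 639.55, 636 and 664.31 at 6 h. It stayed below its starting level, at 70.7% by 6 h. The fourth had 482.6, 490.56 and 484.47 at 0 h, 200.37, 190.11 and 182.69 at 2 h, 505.41, 488.97 and 481.67 at 4 h and 439.25, 437.96 and 465.59 at 6 h. It was level with 0 h at 4 h and below it in all 3 libraries at 6 h. The fifth had 207.66, 211.54 and 218.09 at 0 h, 68.01, 74.35 and 77.67 at 2 h, 290.62, 287.08 and 292.06 at 4 h and 266.09, 267.55 and 262.31 at 6 h. This gene overshot, with all 6 later libraries above the 3 at 0 h.

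Some weak genes were nearly undetected at 2 h. The lowest share left belonged to a gene with 6.98, 5.37 and 4.9 at 0 h, 0.14, 0.32 and 0.19 at 2 h, 6.34, 5.96 and 6.3 at 4 h and 4.97, 5.24 and 4.64 at 6 h. Its mean was 26.5-fold lower at 2 h than at 0 h. Listed values of exactly 0 occurred in at least 1 library at 2 h for 5 dip genes, and in 2 libraries for 3 of them. No dip gene was listed at 0 in a library of another harvest.

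All 3 libraries at 2 h lay below all 9 others for 110 of the 116 dip genes (94.8%), against 10.1% of all genes tested. They lay below all 3 libraries at 0 h for 113, against 23% of all genes tested; both counts use libraries that chose the genes, and nothing is read from them. The 6 genes with overlap had 0 h means of 2.28 to 12.2. One of them had 24.11, 3.39 and 9.08 at 0 h, 0, 5.25 and 9.64 at 2 h, 20.8, 13.09 and 2.05 at 4 h and 5.08, 21.09 and 11.91 at 6 h. Its libraries scattered more within a harvest than between harvests, so its dip does not stand out from its spread. Another had 1.19, 1.96 and 3.7 at 0 h, 0, 0 and 1.22 at 2 h, 1.85, 3.4 and 2.48 at 4 h and 0.45, 4 and 1.96 at 6 h.

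The spread between libraries of 1 harvest was not used to choose the genes. The median coefficient of variation of the dip genes came to 6.98% before exposure, 15.1% after 2 h, 7.74% after 4 h and 8.65% after 6 h (n = 3 libraries at each harvest). Within a level class, too, the median coefficient of the dip genes was higher at 2 h than at 0 h, as it was for all tested genes at values of 5 and above. At 2 h the 76 dip genes below a value of 5 varied by a median of 25.1%, against 18.6% for all tested genes in that class. This class was not matched for level within it. The lower quartile of the dip genes' 2 h means was 0.99 and the lowest 0.12, whereas tested genes needed 1 or more in at least 3 libraries. Dip genes that weak at 2 h were tested through other harvests, so the gap in this class is not read as a trait of theirs. The 27 dip genes between 5 and 20 varied by 9.42%, against 8.87%. The 9 dip genes between 20 and 100 varied by 6.69%, against 6.23%, and the 4 at 100 or more by 7.09%, against 4.52%. Genes that were at least 2.38-fold lower in value + 1 at 2, 4 and 6 h alike varied at 2 h by 27.1%, 11.3%, 7.59% and 3.8%, from the low class to the high. Below a value of 100 the wider spread at 2 h was therefore not particular to the dip genes. At 0 h the medians of the dip genes in these 4 classes, from low to high, were 15.6%, 6.7%, 4.84% and 2.48%, against 19.5%, 7.74%, 4.43% and 2.18% for all tested genes. In 69 dip genes the coefficient stayed under 25% at every harvest, while 6 exceeded 25% at all 4. A steady abundant gene was the sixth by 0 h level, with 83.41, 85.55 and 86.43 at 2 h, against 202.37, 205.59 and 206.76 at 0 h. It was picked for its small spread and the rule asked for its dip, so nothing is read from the size of one against the other. The widest of the abundant genes was the tenth, with 11.62, 23.53 and 28.48 at 2 h, against 41.41, 113.21 and 230.64 at 0 h, where the groups did not overlap although the 0 h values spanned a wide range.

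Summed over the 116 genes, the values came to 9505 ± 232 before exposure, 3422 ± 369 after 2 h, 7967 ± 197 after 4 h and 7830 ± 181 after 6 h (SD, n = 3 each). CTI12_AA098640 alone held 44.7% of the sum at 0 h. Without it the sums were 5258 ± 131, 1790 ± 82.3, 4793 ± 51.6 and 4574 ± 5.33 in the same order of hours. Replicate 1 at 2 h had the lowest sum, 3009, against 3538 and 3719 in its companions, and CTI12_AA098640 carried most of that gap. Gene by gene, the median log2 difference of that library from the other libraries at 2 h was -0.01 over the dip genes. Over all tested genes it was 0.05, the widest of the 12 libraries against their own harvests (others, -0.02 to 0.02). Against that shift its dip genes lay slightly lower.

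The choice was repeated without the libraries of 1 replicate number at every harvest, and the chosen genes were then read in the libraries left out. The replicate numbers do not pair the libraries, so each reading compares single libraries and carries no test. Without number 1 the rule chose 123 genes, of which 118 were lower at 2 h than at 0 h in the libraries of that number (95.9%, against 38.8% of all genes tested). Without number 2 it was 112 of 116 (96.6%, against 41.8%), and without number 3 it was 121 of 123 (98.4%, against 40.7%). The dip was thus present in libraries that had no part in choosing the genes, although those libraries came from the same harvests.

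The held-out dips often missed the limit. Median held-out differences at 2 h were -1.40, -1.52 and -1.41 on the log2(value + 1) scale for numbers 1, 2 and 3. The median of the 116 dip genes, a partly different set, was -1.53 over all libraries. The 2.38-fold limit was met by 81 of 123 (65.9%), 84 of 116 (72.4%) and 83 of 123 (67.5%), against 4.02%, 3.78% and 3.81% of all genes tested. The return was held out as well: at 4 and 6 h together, 88 of 123 (71.5%), 89 of 116 (76.7%) and 91 of 123 (74%) lay within 0.5 of 0 h, against 46.1%, 45.4% and 44.6% of all genes tested. This background was not matched for level. Of the 25841 genes tested, 12619 had a 0 h mean below 5, against 27 of the 116 dip genes, and weak genes vary more between libraries. How much of the gap goes with level was not tested. Median held-out changes were -0.06, 0.03 and -0.0023 at 4 h and -0.11, -0.05 and -0.09 at 6 h. The 2 h library was the lowest of the 4 held-out libraries for 91.9%, 94.8% and 95.9% of the chosen genes, against 23%, 26.2% and 25.4% of all genes tested.

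**Figure D4:**
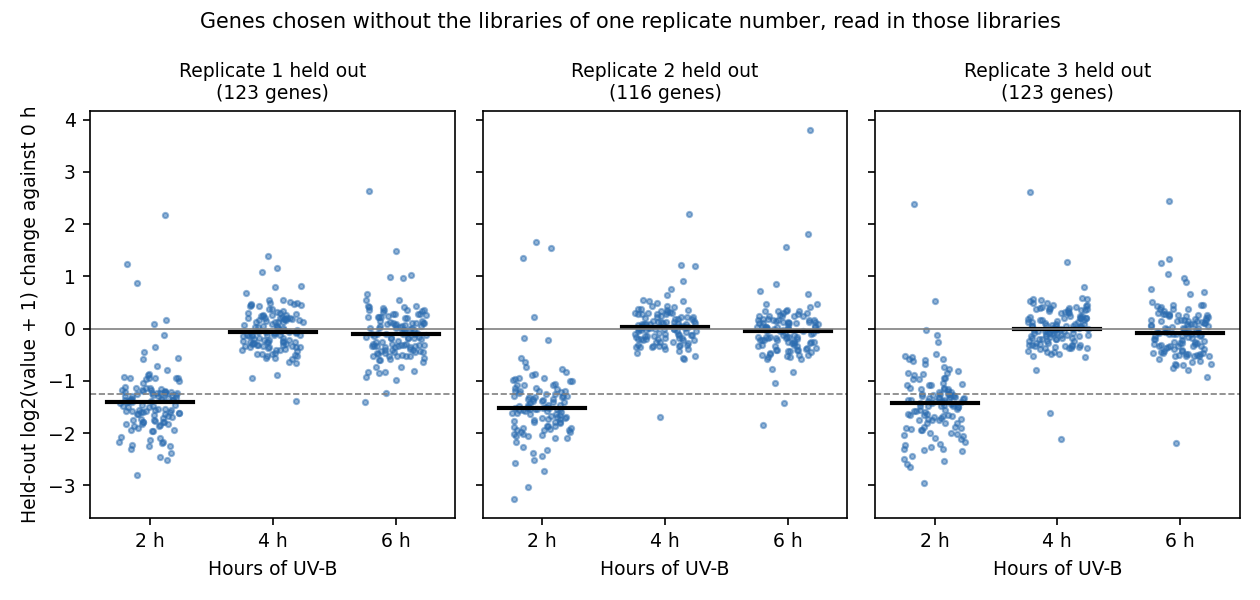
Each panel shows genes chosen without the libraries of 1 replicate number and their log2(value + 1) change against 0 h in the libraries left out, by hours of UV-B; points are genes, black lines medians, and the dashed line marks the 2.38-fold limit. The medians at 2 h are -1.40, -1.52 and -1.41, those at 4 and 6 h lie near 0, and single genes scatter widely.

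After the dip the genes lay on either side of their 0 h mean, within the limit set by the rule. The rule used these means, so the counts are a description. At 4 h, 52 dip genes stood above their 0 h mean and 64 below it; at 6 h, 43 stood above and 73 below. At both later harvests 34 were above and 55 below. These directions depend on the scaling of the libraries. With median-ratio scaling, which takes out the shift shared by most genes, 19 were above and 97 below at 4 h, and 16 above and 100 below at 6 h. The median change of the dip genes was -0.04 at 4 h and -0.12 at 6 h as deposited, and -0.27 and -0.33 after that scaling. Over all genes tested it was 0.21 and 0.20 as deposited, and 0.0067 and 0.0066 after scaling.

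Between 4 and 6 h, 11 of the 116 dip genes were called in one limma model of all 12 libraries (Benjamini-Hochberg adjusted p under 0.05 over 25841 genes). That is 9.48%, against 9.91% of all genes tested, so calls were about as frequent as elsewhere. All 11 were lower at 6 h than at 4 h, where 5.47% of all genes were called lower, and 0 were higher, where 4.44% of all genes were called higher; at an unadjusted p under 0.05, 4 were higher and 26 lower, where 10.5% and 13.1% of all genes were. The rule keeps 4 h and 6 h within 1 of each other but does not set which is higher, and since it used these libraries the counts are given as a description. The count was 6 without any 1 of the 3 libraries at 4 h or without replicate 1 at 6 h. In those fits 6.67% to 7.21% of all genes tested were called, against 9.91% with all libraries, so calls were fewer there too. Without regard to calls, 68.1% of the dip genes had a lower mean at 6 h than at 4 h, against 53.5% of all genes tested (67.2% and 50.9% with median-ratio scaling).

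The called gene with the smallest adjusted p had 222.53, 212.83 and 205.59 at 6 h, against 248.87, 250.42 and 244.76 at 4 h, without overlap. Its log2 difference was -0.21 ± 0.031 (SE; limma adjusted p = 0.001292), and its 6 h mean was 104% of its 0 h mean, while its 4 h mean was 121%. The called gene with the largest difference had 2.03, 2.85 and 2.56 at 6 h, against 4.54, 4.55 and 3.93 at 4 h (log2 difference -0.62 ± 0.138 SE; limma adjusted p = 0.01551). A further gene, with 14.39, 14.49 and 14.42 at 6 h, against 19.5, 25.36 and 21.61 at 4 h, ended well below the 19.6, 21.46 and 20.62 it had at 0 h (log2 difference between 6 and 4 h -0.58 ± 0.117 SE; limma adjusted p = 0.009509). None of the 4 named genes was called. CTI12_AA309760 differed by 0.35 ± 0.144 (SE) on the log2 scale between 6 and 4 h (limma adjusted p = 0.1621), higher at 6 h in all 3 libraries. CTI12_AA098640 differed by 0.04 ± 0.113 (limma adjusted p = 0.8975).

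**Figure D5:**
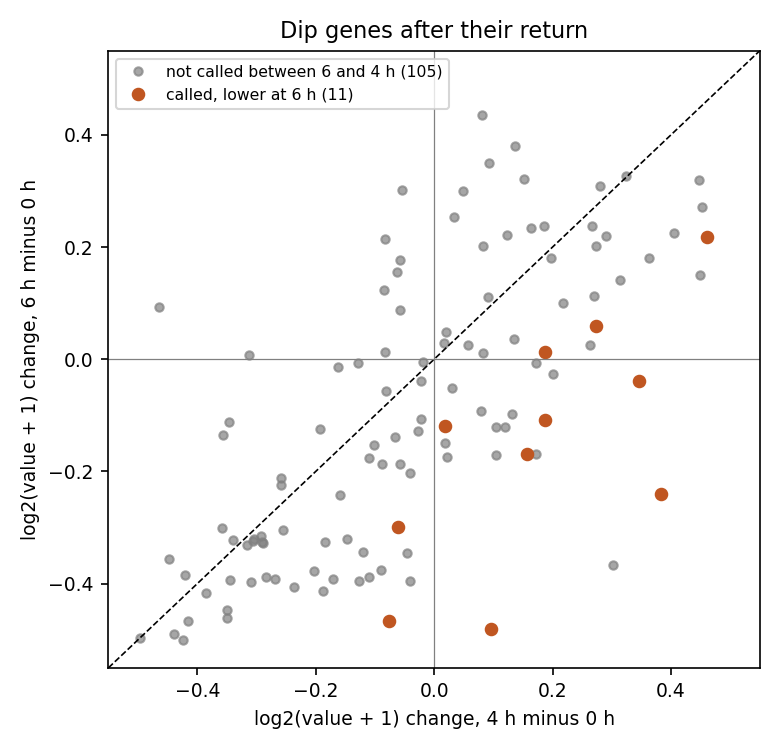
Each point is a dip gene, with its log2(value + 1) change from 0 h at 4 h on the horizontal and at 6 h on the vertical axis; the dashed line marks equal changes. The 11 genes called between 6 and 4 h all lie below that line, and more dip genes lie below it than above.

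The dip genes were a minority of the genes that were low at 2 h. With the same minimum mean, 581 genes were at least 2.38-fold lower in value + 1 at 2 h than at 0 h. Of these, 116 (20%) had returned at both later harvests, 217 (37.3%) were past the same limit at 4 and 6 h as well, and the remaining 248 met neither condition. Within these 248, 45 were back within 0.5 of 0 h at 4 h only and 34 at 6 h only. In the mirror course, 182 of 1448 genes that were at least 2.38-fold higher in value + 1 at 2 h had returned by 4 and 6 h (12.6%). With median-ratio scaling the returning shares were 117 of 785 (14.9%) for genes low at 2 h and 178 of 1233 (14.4%) for genes high at 2 h, so the larger share of returning low genes rests on the scaling.

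The limits of the rule cut through a continuous range. The member closest to the limit at 2 h differed by -1.2515 and the nearest gene outside by -1.2442, with means at 2 h and 0 h of 0.67 and 2.98 for the member and of 1.22 and 3.85 for the gene outside. For the return, the widest member lay 0.499976 from 0 h and the nearest gene outside 0.502565. The rule chose between 113 and 121 genes when any 1 library was left out, and 72 of the 116 were chosen in all 12 of those repeats.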

How the data were processed

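Leaf RNA of 12 libraries was measured by sequencing. The authors deposited 1 table of normalised expression signal per gene and library, to 2 decimals; its header names no unit. Genes listed above 0 in 1 library alone had values from 0.026 to 1.25 (5th to 95th percentile, 333 genes of the first library), so 1 read is not worth the same in every gene and counts were not recovered. HISAT2 2.1.0, DESeq and Salmon are listed, with no role, in the submitters' processing notes; no label used here names a genome build. Columns carry the sample titles, and 0 columns belonged to other samples.

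Members, lists and comparisons were chosen with earlier results of these data known. Values were used as log2(value + 1), which understates changes of low genes. Genes at 1 or more in at least 3 libraries were tested (25841) with limma 3.58.1 in R 4.3.3 (trend, robust, no replicate term). The code was run on simulated data with normal noise of the fitted spread, which meets the model by design. That check of the code does not bear on the calls here. P-values measure the spread between libraries, which the labels call biological repeats. Identifiers were printed for the 2 members with the lowest 2 h difference among those with a 0 h mean of at least 5 and the 2 with the highest 0 h mean; other members shown were chosen after their values were seen. Planned gene lists and cell type markers were not used, since no names were at hand. Same-numbered libraries did not deviate together.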

Additional observations from a re-analysis of the deposited data

Results flagged for a closer look

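Dip genes called between 4 and 6 h were all lower at 6 h, but calls in both directions together were no more frequent than among all genes tested (9.48%, against 9.91%). In limma, 11 of the 116 dip genes were lower at 6 h than at 4 h and 0 were higher at an adjusted p under 0.05, against 5.47% lower and 4.44% higher of all 25841 genes tested. At an unadjusted p under 0.05, 26 were lower and 4 higher, against 13.1% and 10.5% of all genes tested; no other tool was run. The genes were chosen on these same libraries, within 0.5 of 0 h at both harvests, so these counts are a description and not an independent test.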

How the results depend on the processing

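Which genes count as dip genes depends on the pseudocount and the limits. The rule chose 239 genes with a pseudocount of 0.1 (107 of the 116 among them) and 27 with 5 (24 among them). A least fall of 1 gave 236 genes and one of 1.5 gave 61; a return to within 0.25 gave 48 and to within 0.75 gave 176. Median-ratio scaling kept the number, 117, but shared only 76 genes, while dropping the minimum mean gave 151 and harvest medians gave 128. Leaving out each library gave 113 to 121 genes. Held-out changes at 2 h below 0 by any amount made up 97% of the genes chosen over the 3 repeats. The share was 94% with a pseudocount of 0.1 and 98.9% with 5. Held-out returns were 74%, 55.9% and 80.9%. A gene chosen in more than 1 repeat counts each time. In the main setting, 38.8% to 41.8% of all genes tested were below 0 h at 2 h, and 44.6% to 46.1% met the return limit. The count called between 6 and 4 h was 8 without a filter (5.3% of all tested genes called), 16 with a pseudocount of 5 (10.9%), between these under the other settings, and 6 to 12 without 1 library, with 0 to 2 of them higher at 6 h; without 1 library, 6.67% to 11.2% of all tested genes were called. The replicate numbers did not pair the libraries (correlations of deviations between same-numbered libraries of -0.02 to 0.04 over 18 pairs). A replicate block gave 9 calls in place of 11, with 8.53% of all tested genes called in place of 9.91%. The 2 h differences of the 4 named genes kept their sign in all settings (-3.25 to -1.23). The rule asked for these falls, and leaving out a 4 h or 6 h library cannot change them. As deposited, CTI12_AA098640 lay at -0.42 and CTI12_AA288720 at -0.29 against 0 h at 4 h on the log2(value + 1) scale. Median-ratio size factors were 0.89 to 0.91 at 0 h and 1.07 to 1.09 at 4 h. After that scaling both genes would lie outside the return limit at 4 h, so the rule would not choose them. Unknown read depth limits all values near 0.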

Other observations

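Of the 116 dip genes, 1 pair carried consecutive identifier numbers, picked after the values were seen; the table gives no positions, so whether they are neighbours is not known here. The stronger had 17.98, 16.35 and 12.59 at 2 h, against 35.72, 41.43 and 38.19 at 0 h. The weaker had 0.51, 0.32 and 1.57 at 2 h, against 2.55, 6.16 and 4.45 at 0 h.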
